A study of Mus musculus with 8 samples.

Results

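The genes of major histocompatibility complex (MHC) class II antigen presentation were followed in inguinal white adipose tissue (iWAT), which lies under the skin of the groin. They were taken by gene symbol from the deposited expression table, and 10 of its 54532 genes were named for this set: the class II chains H2-Aa, H2-Ab1 and H2-Eb1, the peptide-loading genes H2-DMa, H2-DMb1, H2-DMb2, H2-Oa and H2-Ob, the invariant chain Cd74 and the transactivator Ciita. All 10 were in the table and all 10 passed the filter on low values. The tissue came from male mice kept on a high-fat diet (HFD), as 4 libraries labelled KLF10AKO, in which KLF10, a zinc-finger transcription factor, was knocked out in adipocytes, and 4 libraries labelled wild type (WT). The diet and the sex were shared by both groups. The labels used here give neither the means of the knockout nor the strain nor the animal behind each library, and p-values therefore rest on the spread among these 8 libraries, part of which may be technical. The study's stated question was what KLF10 does in adipose metabolism.

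Class II molecules are pairs of an alpha and a beta chain that show peptides from endocytosed proteins to CD4+ T cells. The invariant chain CD74 fills their groove until endosomal proteases cut it down, H2-DM then exchanges the last fragment for peptide, and H2-O holds H2-DM back. Dendritic cells, B cells and macrophages are the cells best known for class II; CIITA, which binds no DNA itself, switches the genes on through factors that sit on the X and Y boxes of their promoters, and interferon-gamma can induce it in other cells.

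The promoter boxes are shown first because they are the elements through which CIITA is known to act. RefSeq promoters of build GRCm38.p6 (mm10) were matched to 7 of the 10 genes by symbol, and the 250 bases before each start site were searched. The motif searched was AAC, letters found in X boxes, then 22 to 30 bases of any kind, then GATTGG, the core of a Y box. The spacing was chosen after looking at the sequences. In the lines that follow, read 5′ to 3′ on the strand of the gene, capitals mark AAC and GATTGG.
H2-Aa: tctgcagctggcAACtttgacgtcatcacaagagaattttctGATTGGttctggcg
H2-Eb1: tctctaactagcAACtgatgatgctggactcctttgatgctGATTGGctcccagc
H2-DMb1: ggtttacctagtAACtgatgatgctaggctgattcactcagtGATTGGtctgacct
H2-DMb2: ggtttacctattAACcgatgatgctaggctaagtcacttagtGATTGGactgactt
H2-Oa: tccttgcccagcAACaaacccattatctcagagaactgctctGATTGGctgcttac
H2-Ob: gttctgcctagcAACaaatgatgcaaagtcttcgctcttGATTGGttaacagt
H2-Eb2: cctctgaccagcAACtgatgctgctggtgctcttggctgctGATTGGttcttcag
The windows lie at chr17:34287859-34287914 on the minus strand and, on the plus strand, at chr17:34305766-34305820, chr17:34153087-34153142, chr17:34145116-34145171, chr17:34092293-34092348, chr17:34238808-34238860 and chr17:34325533-34325587, in the order shown. H2-Eb2, a second E beta gene beside the set, is included for comparison. The motif was read on the gene's own strand in 6 of the 7 genes with a promoter, or 6 of their 8 promoters. It was in 0.697% of 32851 promoters on that strand or 1.56% on either strand. As the spacing was chosen with the sequences seen, these shares do not test for enrichment. GATTGG alone, which is part of the longer motif, was found on the gene's strand in 7 of the 7 genes, or 7 of their 8 promoters. It was in 7.73% of all promoters on that strand, or 14.6% on either strand. The version with GCAAC in place of AAC was found in 4 of the genes, or 4 of the 8 promoters. It was in 0.0852% of all promoters on the gene's strand or 0.161% on either strand. The bases between the boxes numbered 27 in H2-Aa, H2-DMb1, H2-DMb2 and H2-Oa, 26 in H2-Eb1 and 24 in H2-Ob. The longer motif was not in the windows of H2-DMa, whose RefSeq starts lie upstream of the gene start in the deposited table. A match of letters is a description and was not tested as a binding site.

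Whole reads recovered from the deposited FPKM (fragments per kilobase of gene, scaled to library size) came to 15900731 to 17396282 per KLF10AKO library and 15537863 to 17499132 per WT library. Klf10, the targeted gene, averaged 9.60 ± 0.157 FPKM in KLF10AKO and 18.2 ± 2.09 FPKM in WT libraries (SD, n = 4 each), a log2 change of -0.88 (limma adjusted p = 8.96e-06) that turned to 0.73 after scaling to adipocyte markers. All 14 adipocyte markers were expressed and lower in KLF10AKO, against 34.9% of the 16012 genes tested. Their log2 changes ran from -1.91 to -0.49, the weakest in Cfd. Their summed levels were 5331 to 7123 FPKM in KLF10AKO and 16795 to 18588 FPKM in WT libraries. Skeletal muscle markers summed to 3555 to 8246 FPKM in KLF10AKO replicates 1 to 3, 62.5 FPKM in KLF10AKO replicate 4 and 171 to 226 FPKM in WT libraries. The WT sum was mostly Acta1, at 160 to 213 FPKM. KLF10AKO replicate 4 was below every WT library in Acta1, at 20.9 FPKM, and in Myh4. It was above every WT library in Mylpf, Tnnt3, Tnni2 and Eno3, with Eno3 at 28.9 FPKM against 8.51 to 11.4 FPKM. In Ckm and Tnnc2 it lay within the WT range. Markers of B cells and T cells, given with the results they touch, were present in all 4 KLF10AKO libraries and near 0 in WT. Prl3b1, a placental hormone gene, was at 0 reads in every KLF10AKO library and at 7.13 to 19.3 FPKM in WT libraries.

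All 10 class II genes were higher in KLF10AKO than in WT iWAT, against 39.4% of the 16012 genes tested (limma on log2(FPKM + 0.5), Benjamini-Hochberg adjusted p under 0.05). In all 10, every KLF10AKO library lay above every WT library, as was the case for 36.2% of the genes tested. The median log2 change of the 10 genes was 2.71, against 0.05 over all genes tested. In 9 of the 10 the change was at least 4-fold on this scale, against 7.59% of genes tested, and H2-DMb1 was just under it. Together the 10 genes took 1.12%, 1.21%, 0.945% and 1.36% of the reads in KLF10AKO replicates 1 to 4, and 0.180%, 0.201%, 0.195% and 0.143% in WT replicates 1 to 4. In these bulk samples, more cells that carry class II and more class II RNA per cell cannot be told apart.

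**Figure D1:**
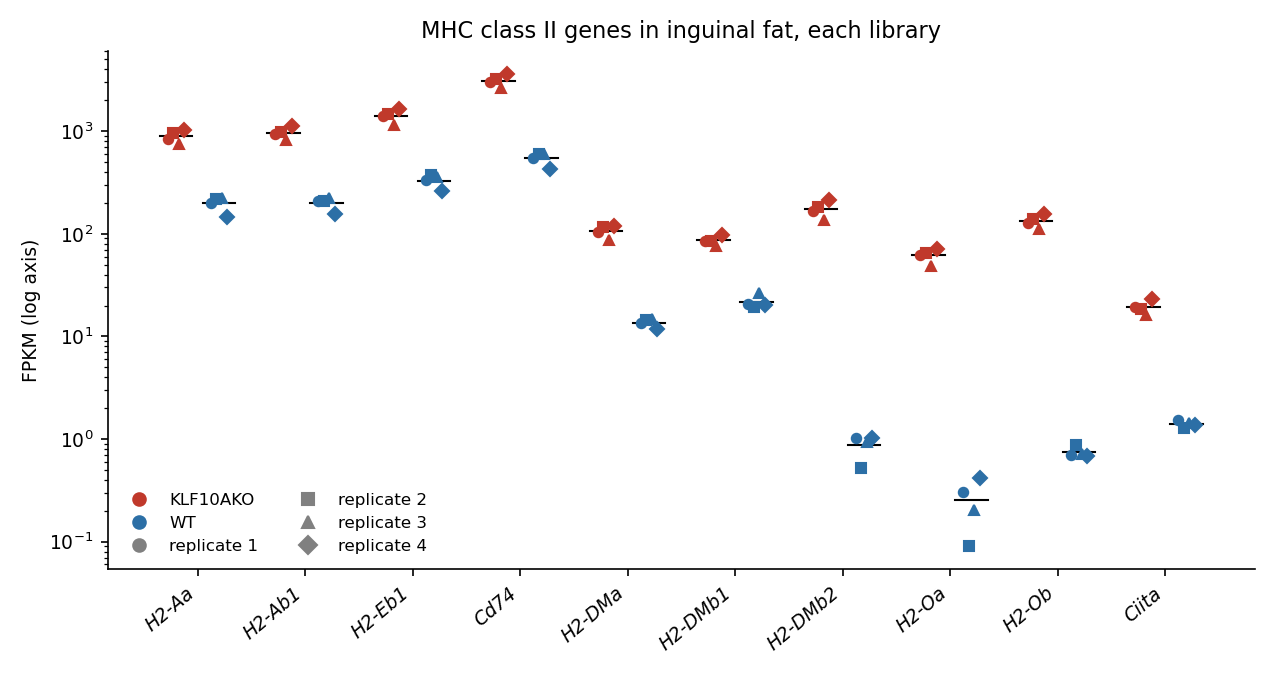
FPKM (log axis) of the 10 class II genes in each of the 8 libraries, KLF10AKO left of WT for every gene, with points for libraries and lines for group means. The KLF10AKO points sit above the WT points for every gene, and the gap is widest for H2-DMb2, H2-Oa and H2-Ob.

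The invariant chain and the classical chains were the most abundant members. Cd74, which chaperones newly made class II dimers and blocks their groove, had 3020.3, 3219.5, 2626 and 3581 FPKM in KLF10AKO replicates 1 to 4, against 545, 604, 595 and 432 FPKM in WT replicates 1 to 4. The groups were far apart, with KLF10AKO replicate 4 the highest and WT replicate 4 the lowest. The log2 change was 2.52 (SE 0.149, limma adjusted p = 7.81e-07), and the exact two-sided permutation p of 0.0286 is the smallest that 4 libraries against 4 allow, as it was for each of the 10 genes. Among protein-coding genes by FPKM, Cd74 ranked 4, 4, 6 and 2 in KLF10AKO replicates 1 to 4 and 58, 57, 55 and 74 in WT replicates 1 to 4.

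H2-Aa, the alpha chain of the A molecule, had 844, 967, 756 and 1033 FPKM in KLF10AKO libraries, against 201, 221, 221 and 147 FPKM in WT libraries. H2-Ab1, its beta chain partner, had 942, 993, 813 and 1119.6 FPKM in KLF10AKO libraries, against 208, 208, 225 and 156 FPKM in WT libraries. Both chains of the A molecule were higher, and the log2 change was 2.19 for H2-Aa (SE 0.156, limma adjusted p = 2.26e-06) and 2.28 for H2-Ab1 (SE 0.141, limma adjusted p = 1.01e-06). H2-Eb1, the beta chain of the E molecule, had 1391, 1480.0, 1152 and 1636 FPKM in KLF10AKO libraries, against 331, 370.4, 358 and 259 FPKM in WT libraries, a log2 change of 2.10 (SE 0.149, limma adjusted p = 2.24e-06). In all 3 chain genes the lowest KLF10AKO library was more than 3 times the highest WT library.

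RNA of the E alpha chain was at or near 0 in both groups. H2-Ea-ps, the E alpha gene, named a pseudogene in the table and known to be silent in mice of the H2-b haplotype, had 0, 7, 5 and 1 reads in KLF10AKO libraries and 0, 1, 0 and 0 reads in WT libraries. The groups overlap, while its beta partner H2-Eb1 was second in abundance among the members. H2-Eb2, the neighbouring E beta gene, had 23.0, 25.7, 16.9 and 28.8 FPKM in KLF10AKO libraries, against 0.0909, 0.0544, 0.0302 and 0.0308 FPKM in WT libraries. The WT level rests on 7 reads over the 4 libraries, and the change was large by either measure, with a log2 change of 5.43 on the log2(FPKM + 0.5) scale (SE 0.147, limma adjusted p = 8.92e-09) and group means 458-fold apart in FPKM.

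The peptide editors showed the widest range of changes. H2-DMa, the alpha chain of H2-DM, had 104, 115, 86.6 and 120.2 FPKM in KLF10AKO libraries, against 13.6, 14.5, 14.7 and 11.8 FPKM in WT libraries, a log2 change of 2.91 (SE 0.113, limma adjusted p = 6.69e-08). H2-DMb1, a beta chain of H2-DM, had 86.0, 85.3, 75.6 and 97.6 FPKM in KLF10AKO libraries, against 20.6, 19.4, 26.7 and 20.1 FPKM in WT libraries. Its log2 change of 1.97 (SE 0.113, limma adjusted p = 6.72e-07) was the smallest among the 10 genes, and the groups did not overlap. H2-DMb2, the other H2-DM beta gene, had 168, 183, 137 and 216 FPKM in KLF10AKO libraries, against 1.02, 0.527, 0.935 and 1.04 FPKM in WT libraries.

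H2-DMb2 had the largest change of the set on the log2(FPKM + 0.5) scale, 6.998 (SE 0.166, limma adjusted p = 4.96e-09), and the balance of the beta genes differed between the groups. H2-DMb2 made up 66.1%, 68.2%, 64.4% and 68.9% of the summed H2-DM beta FPKM in KLF10AKO replicates 1 to 4, and 4.70%, 2.64%, 3.39% and 4.90% in WT replicates 1 to 4. The reference transcripts compared, the ones numbered first for each gene in GENCODE, were 94.4% identical over 1255 aligned bases, with a longest identical run of 221 bases, so reads from that stretch cannot be assigned by sequence. How such reads were counted is not given in the sources used here, and the split between H2-DMb1 and H2-DMb2 is uncertain to that extent.

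H2-O, the brake on H2-DM known from B cells and thymic epithelium, was close to absent from WT. H2-Oa, its alpha chain, had 62.1, 64.4, 48.8 and 71.2 FPKM in KLF10AKO libraries, against 0.306, 0.0915, 0.203 and 0.415 FPKM in WT libraries. H2-Ob, its beta chain, had 128, 140.0, 111 and 155 FPKM in KLF10AKO libraries, against 0.701, 0.877, 0.719 and 0.691 FPKM in WT libraries. The WT levels rest on 20 reads of H2-Oa and 145 reads of H2-Ob over the 4 libraries. The log2 change was 6.37 for H2-Oa (SE 0.154, limma adjusted p = 5.33e-09) and 6.74 for H2-Ob (SE 0.103, limma adjusted p = 1.74e-09). The added 0.5 understates changes of genes this low: in plain FPKM the group means stood 243-fold apart for H2-Oa, 179-fold for H2-Ob and 200.1-fold for H2-DMb2, and voom on recovered reads gave 249-fold, 175-fold and 202-fold in the same order. In the H2-Oa gene model, 321 exon bases (22.8%) are shared with the antisense gene BC051537, and the strand setting of the counting is not given in the sources used here.

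Ciita, the master regulator of the set and its least abundant member in KLF10AKO, had 19.5, 18.5, 16.3 and 22.9 FPKM in KLF10AKO libraries, against 1.54, 1.27, 1.42 and 1.36 FPKM in WT libraries. The groups did not overlap. The log2 change was 3.37 (SE 0.102, limma adjusted p = 1.45e-08), and the group means stood 13.8-fold apart in FPKM. In KLF10AKO it stood below H2-DMb2, H2-Ob and H2-Oa, whereas in WT it stood above all 3.

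The order of the levels therefore differed between the groups. In KLF10AKO it ran Cd74, H2-Eb1, H2-Ab1, H2-Aa, H2-DMb2, H2-Ob, H2-DMa, H2-DMb1, H2-Oa and Ciita, by mean FPKM, which is per length. The ranges of neighbours overlapped between H2-Ab1 and H2-Aa, and in the run from H2-DMb2 to H2-DMb1, though within each KLF10AKO library the order held. In WT it ran Cd74, H2-Eb1, H2-Ab1, H2-Aa, H2-DMb1, H2-DMa, Ciita, H2-DMb2, H2-Ob and H2-Oa, with overlap between H2-Ab1 and H2-Aa and between H2-DMb2 and H2-Ob. The first 4 places were the same in both groups.

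The KLF10AKO libraries were also ordered alike from gene to gene. Replicate 4 was the highest and replicate 3 the lowest KLF10AKO library in all 10 genes. The full order was replicate 4, 2, 1 and 3 in 8 genes and replicate 4, 1, 2 and 3 in H2-DMb1 and Ciita. The summed B cell markers followed the first of these orders, at 1386, 1478, 1154 and 1711 FPKM in KLF10AKO replicates 1 to 4, against 3.43, 2.96, 3.95 and 4.36 FPKM in WT replicates 1 to 4. The summed T cell markers did so too, and the summed adipocyte markers ran the opposite way in KLF10AKO, lowest in replicate 4 and highest in replicate 3. The summed skeletal muscle markers also ran the opposite way, at 4695, 3555, 8246 and 62.5 FPKM in KLF10AKO replicates 1 to 4. Summed lymph node stroma markers followed another order, at 142, 160, 175 and 383 FPKM in KLF10AKO replicates 1 to 4. That order rests on 1 row of Ccl21a, with 29.8, 34.5, 80.2 and 244 FPKM. Cxcl13, Glycam1 and Madcam1 ran replicate 4, 2, 1 and 3 like most class II genes, Cxcl13 at 81.2, 89.3, 66.3 and 100.2 FPKM in replicates 1 to 4. The rows of Ccl21a and Ccl19 did not. The part of these cell types in the class II levels was not tested.

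Ratios of 2 genes within a library were compared for 12 pairs, as log2 ratios of FPKM + 0.5 (exact two-sided permutation test, Benjamini-Hochberg over the 12). Ratios with a low gene move with the pseudocount and with the scaling of the library. In 10 pairs the groups did not overlap, each with an adjusted p of 0.0343, the smallest reached here. The chain ratio H2-Aa to H2-Ab1 was 0.896 to 0.974 in KLF10AKO and 0.944 to 1.06 in WT libraries, a log2 difference of -0.09 with overlap (adjusted exact p = 0.0935). The ratio H2-Oa to H2-Ob was 0.440 to 0.484 in KLF10AKO and 0.104 to 0.600 in WT libraries, a log2 difference of -0.37 with overlap (adjusted exact p = 0.143) that turned to 0.23 with a pseudocount of 0.1.

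The other ratios show where members moved unequally. Cd74 to H2-Ab1 was 3.20 to 3.24 in KLF10AKO and 2.62 to 2.90 in WT libraries, a small log2 difference of 0.24 that exceeded the spread in both groups. H2-Eb1 to H2-Ab1 was lower in KLF10AKO, at 1.42 to 1.49, than in WT, at 1.59 to 1.78, a log2 difference of -0.18. H2-DMa gained on H2-Ab1 by a log2 difference of 0.63, and Ciita by 1.10. Far larger were the differences of H2-DMb2 to H2-DMb1 at 5.03, H2-Ob to H2-DMa at 3.83 and H2-Oa to H2-DMa at 3.46, which all rest on low WT reads and so move with the pseudocount. With a pseudocount of 1 these 3 came to 4.60 for H2-DMb2 to H2-DMb1, 3.39 for H2-Ob to H2-DMa and 2.77 for H2-Oa to H2-DMa, and with 0.1 to 5.52, 4.35 and 4.58 in the same order.

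**Figure D2:**
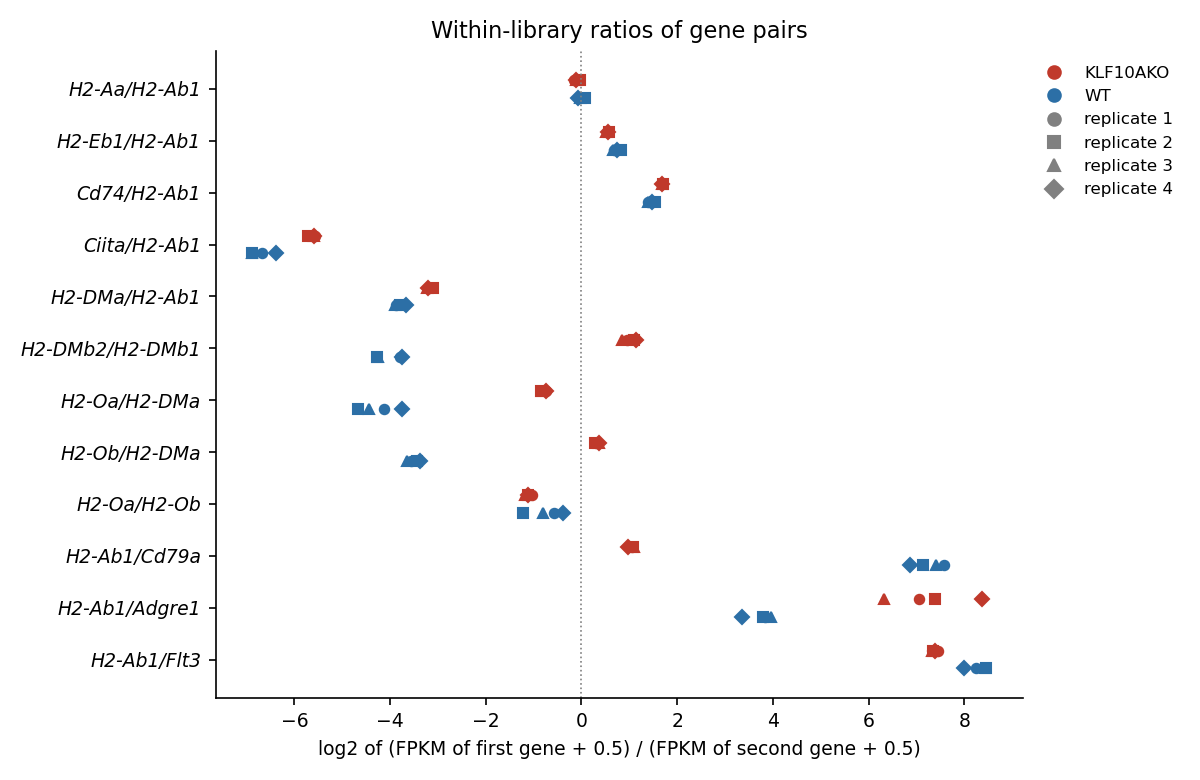
Log2 ratio of 2 genes within each library for 12 pairs, KLF10AKO above WT in each row, with points for libraries. The groups overlap in H2-Aa to H2-Ab1 and in H2-Oa to H2-Ob and are apart in the other 10 pairs.

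The last 3 ratios set H2-Ab1 against a gene of 1 cell type. H2-Ab1 to Cd79a, a B cell receptor component, was 1.96 to 2.15 in KLF10AKO and 185 to 348 in WT libraries, a log2 difference of -6.19. Cd79a itself had 451, 473, 378 and 571 FPKM in KLF10AKO libraries, against 0.597, 0.991, 0.823 and 0.841 FPKM in WT libraries, so class II RNA in WT was present with hardly any B cell RNA. H2-Ab1 to Adgre1, which encodes the macrophage marker F4/80, was 83.4 to 388 in KLF10AKO and 10.6 to 16.0 in WT libraries, a log2 difference of 3.54. H2-Ab1 to Flt3, a receptor of dendritic cells and their precursors, was 176 to 191 in KLF10AKO and 1129 to 2140 in WT libraries, a log2 difference of -0.91 that came to -0.20 with a pseudocount of 1 and -2.25 with 0.1, since Flt3 had 10 to 17 reads per WT library.

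Whole marker lists were set beside the members, again against 39.4% of all genes tested higher and 34.9% lower. All 10 B cell markers were higher in KLF10AKO, with a median log2 change of 6.78 and summed levels of 1154 to 1711 FPKM in KLF10AKO and 2.96 to 4.36 FPKM in WT libraries. All 8 T cell markers were higher, with a median of 5.02 and sums of 221 to 324 FPKM in KLF10AKO and 4.27 to 5.78 FPKM in WT libraries. Of 8 dendritic cell markers, 6 were higher and 2 lower, Zbtb46 with a log2 change of -0.42 and Clec10a with -0.39, with sums of 56.0 to 61.8 FPKM in KLF10AKO and 35.1 to 42.0 FPKM in WT libraries. Zbtb46 and Clec10a turned to 1.19 and 1.22 after scaling to adipocyte markers.

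Most macrophage markers were lower. Of 10, 7 were lower, 1 was higher and 2 did not pass, with a median log2 change of -0.44 (1.17 after scaling to adipocyte markers). Lyz2, the lysozyme gene of macrophages and granulocytes, was the marker that rose, at 599.6 ± 25.8 FPKM in KLF10AKO and 331 ± 26.3 FPKM in WT libraries (SD, n = 4 each). The summed level of the list was 877 to 905 FPKM in KLF10AKO and 683 to 768 FPKM in WT libraries. No other gene of the list had a higher mean in KLF10AKO, so the higher sum rests on Lyz2. None of the B cell, T cell, dendritic cell and macrophage markers was at 0 in all libraries of a group. The 5 lymph node stroma markers had 7 rows in the table, of which 4 passed the filter on low values (Cxcl13, Glycam1, Madcam1 and 1 of the rows named Ccl21a), and all 4 were higher. Their list summed to 142 to 383 FPKM in KLF10AKO and 0.941 to 1.54 FPKM in WT libraries, with Ccl21a and Ccl19 listed at 0 in every WT library. Whether lymph node, muscle or other tissue was taken along with the fat in dissection was not tested, nor was the part of any of these markers in the class II change.

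**Figure D3:**
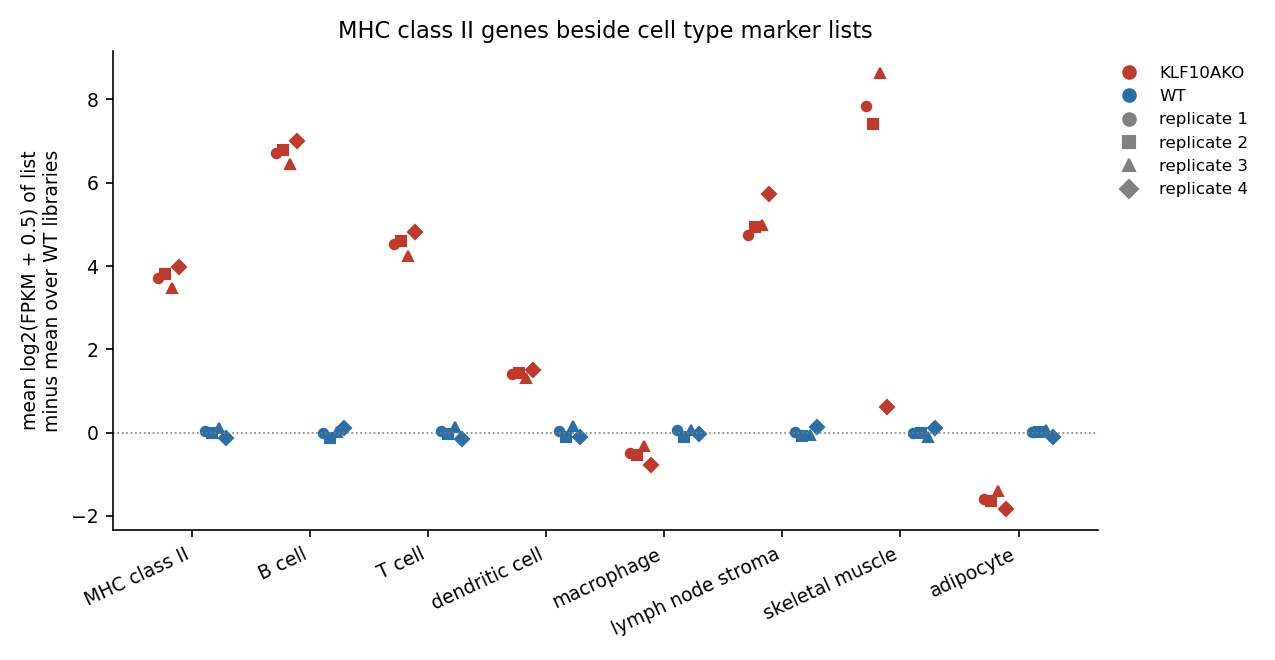
Mean log2(FPKM + 0.5) of the class II genes and of cell type marker lists in each library, less the mean over WT libraries, KLF10AKO left of WT, with points for libraries. B cell, T cell and class II genes lie above 0 in every KLF10AKO library and adipocyte markers below, while muscle markers lie far higher in KLF10AKO replicates 1 to 3 than in replicate 4.

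Among the factors that bind class II promoters, 5 of 7 were higher and 1 lower, against 39.4% and 34.9% of all genes tested. Rfx5, the X box factor whose loss causes bare lymphocyte syndrome in humans, had 8.83, 8.62, 7.503 and 9.12 FPKM in KLF10AKO libraries, against 2.03, 1.74, 1.76 and 2.28 FPKM in WT libraries, a log2 change of 1.88 (limma adjusted p = 2.91e-07). The Y box subunits Nfya, Nfyb and Nfyc rose by 0.82, 0.58 and 0.65 on the log2 scale, and Creb1, which binds the X2 box, by 0.79. With KLF10AKO replicate 4 alone, Nfyb and Nfyc did not pass (limma adjusted p = 0.0854 for Nfyb and 0.156 for Nfyc). Rfxap, a partner of Rfx5, fell by 0.34 on the log2 scale (limma adjusted p = 0.00189), did not pass with TPM and turned to 1.27 after scaling to adipocyte markers. Rfxank, the remaining partner, had a log2 difference of 0.19 that did not pass (limma adjusted p = 0.0511) and was -0.05 after quantile normalization. It passed in 5 of 19 alternatives, among them TPM at 0.41 (limma adjusted p = 0.00934) and scaling to adipocyte markers at 1.80. The median log2 change of the 7 factors was 0.65.

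Of 7 interferon-gamma signalling genes tested, 6 were higher and 1 lower, against 39.4% and 34.9% of all genes tested. Irf8, a transcription factor of B cells and dendritic cells, had 34.98, 38.8, 31.7 and 44.0 FPKM in KLF10AKO libraries, against 3.53, 3.06, 3.23 and 3.30 FPKM in WT libraries, a log2 change of 3.32 (limma adjusted p = 1.40e-08). The transcription factor gene Irf1 rose by 1.15 on the log2 scale, the feedback inhibitor Socs1 by 2.71, the receptor chain Ifngr2 by 0.78, and the kinases Jak1 and Jak2 by 0.90 and 0.69. Ifngr1, the other receptor chain, fell by 0.84 on the log2 scale and turned to 0.77 after scaling to adipocyte markers. Ifng itself was under the filter, with 15, 12, 7 and 9 reads in KLF10AKO libraries and 2, 0, 1 and 1 reads in WT libraries. The median log2 change of the 7 genes was 0.90.

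Of the 8 endosomal enzymes that prepare antigen, 3 were higher (39.4% of all genes tested were) and 4 lower (34.9% of all genes tested were). Ctss, the cathepsin that makes the last cuts in the invariant chain in B cells and dendritic cells, had 249.96, 257, 247 and 287 FPKM in KLF10AKO libraries, against 74.8, 90.0, 75.1 and 84.3 FPKM in WT libraries, a log2 change of 1.68 (limma adjusted p = 3.05e-07). Ifi30, the thiol reductase GILT, rose by 2.40 on the log2 scale and Ctsh by 0.99. The broadly expressed lysosomal proteases were lower on this scale: Ctsd fell by 1.60, Ctsb by 1.38, Ctsl by 1.22 and Lgmn by 0.39, and after scaling to adipocyte markers they stood at 0.01, 0.23, 0.39 and 1.22. Lgmn did not pass in TPM (-0.18, limma adjusted p = 0.266). Ctsz had a difference of -0.10 that did not pass (limma adjusted p = 0.179), with 0.11 in TPM and 1.51 after scaling to adipocyte markers. The median log2 change of the 8 enzymes was -0.25.

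The 2 ubiquitin ligases that remove class II from the surface went opposite ways. March1, expressed in B cells and dendritic cells, had 9.21, 10.6, 8.34 and 12.1 FPKM in KLF10AKO libraries, against 1.17, 0.581, 1.17 and 0.886 FPKM in WT libraries, a log2 change of 2.87 (limma adjusted p = 6.18e-07). March8, its broadly expressed relative, had 5.50, 5.52, 6.06 and 4.54 FPKM in KLF10AKO libraries, against 12.5, 12.7, 13.4 and 12.6 FPKM in WT libraries, a log2 change of -1.18 (limma adjusted p = 2.01e-06) that turned to 0.43 after scaling to adipocyte markers. The groups did not overlap in either gene.

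Costimulatory genes and the T cell receptors of class II were higher too. All 5 costimulatory genes were higher, against 39.4% of all genes tested. The log2 changes were 3.81 for Cd40, 3.61 for Icosl, 2.52 for Cd86, 1.84 for Cd83 and 1.23 for Cd80. Cd4, the T cell coreceptor that binds class II, had 20.99, 21.7, 16.7 and 24.7 FPKM in KLF10AKO libraries, against 0.282, 0.104, 0.165 and 0.0844 FPKM in WT libraries, a log2 change of 5.03 (limma adjusted p = 8.06e-09). Lag3, an inhibitory receptor that also binds class II, averaged 8.59 ± 1.17 FPKM in KLF10AKO and 2.99 ± 0.218 FPKM in WT libraries (SD, n = 4 each), a log2 change of 1.38 (limma adjusted p = 2.05e-06).

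**Figure D4:**
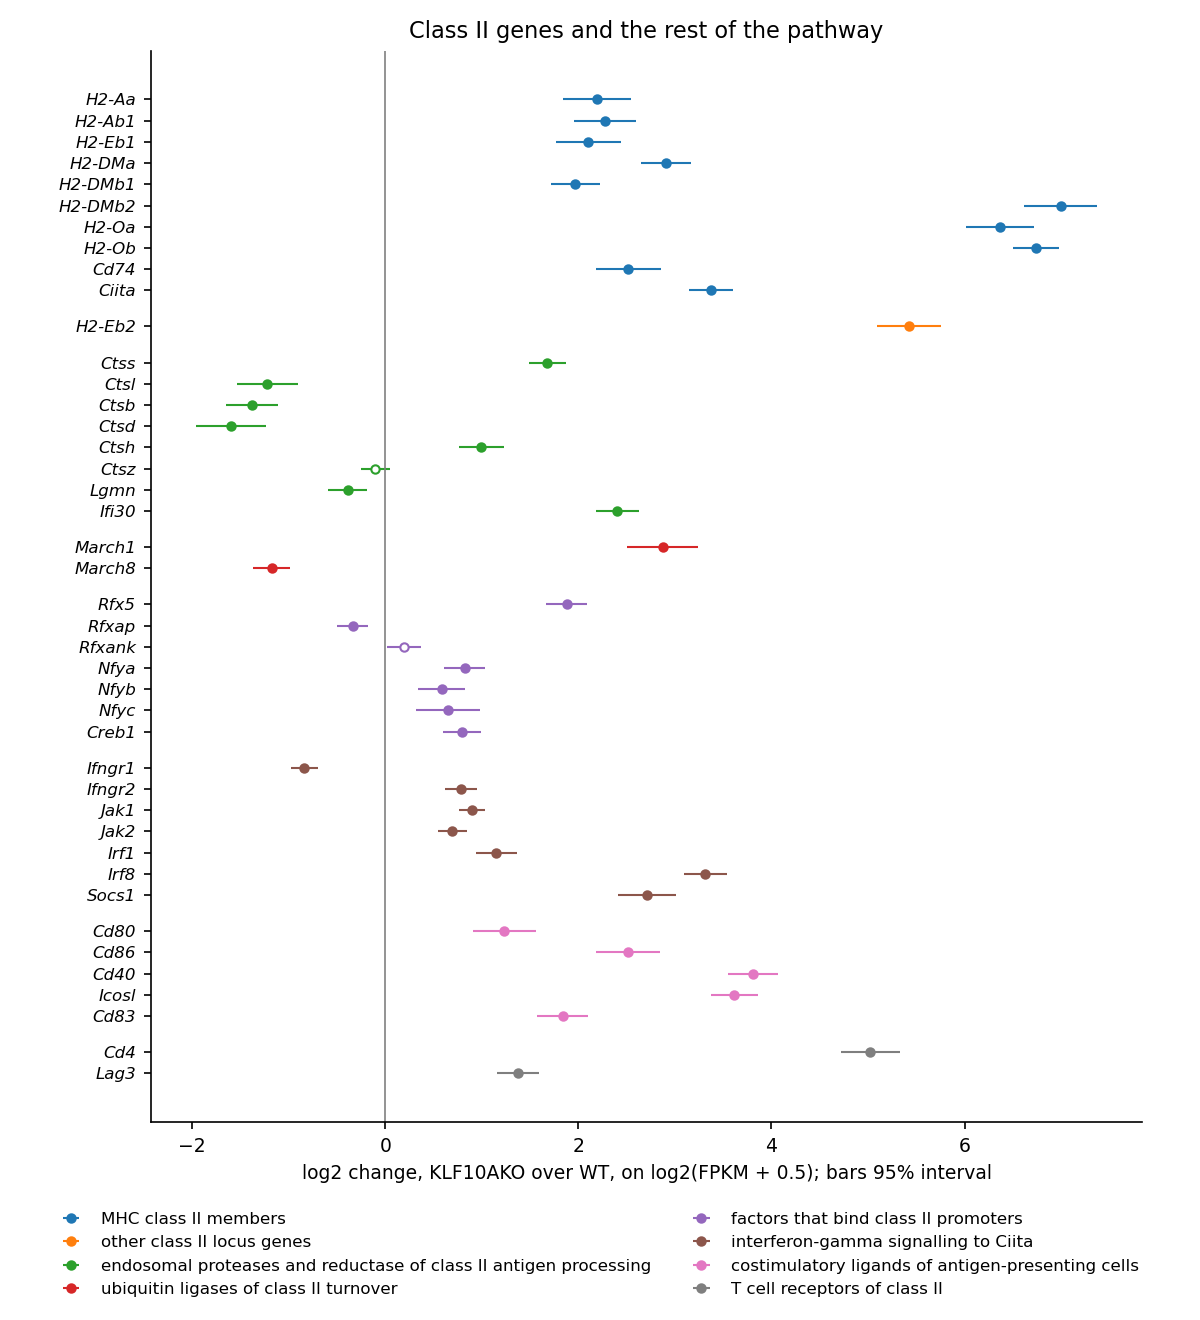
Log2 change, KLF10AKO over WT, of the class II genes and of the lists around them, with points for genes (open where the change did not pass) and bars for 95% intervals from limma. The 10 class II genes lie between 1.97 and 6.998, and the endosomal enzymes lie on both sides of 0.

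Position was compared next, since 8 of the 10 genes lie within 223860 bases of chromosome 17 (mm10, chr17:34092340-34316199). All 17 genes tested in that interval were higher in KLF10AKO, the 9 that are not members included, against 39.4% of all genes tested. The 6 protein-coding neighbours had a median log2 change of 1.44. Among them Tap1 and Tap2, the peptide transporter of class I, rose by 2.30 and 1.06 on the log2 scale, and Psmb9 and Psmb8, subunits of the immunoproteasome, by 1.84 and 1.82. Brd2, a chromatin reader between H2-Oa and H2-DMa, averaged 36.7 ± 2.68 FPKM in KLF10AKO and 31.7 ± 1.81 FPKM in WT libraries (SD, n = 4 each), a log2 change of 0.21 (limma adjusted p = 0.0220) that did not pass without WT replicate 2 (adjusted p = 0.0513), without WT replicate 3 (0.0595) or without a filter (0.0592). Psmb9 overlaps the start of Tap1, and Gm15821, called protein coding in the deposited table, lies inside Tap2, each pair on opposite strands. The antisense gene Gm20496, with a log2 change of 2.13, overlaps the end of Psmb8 and the start of Tap2, also on the opposite strand. As the setting for strand is not given, reads from the shared stretches cannot be told apart. The neighbours stood between 0.21 and 6.03, and H2-Oa and H2-DMa on either side of Brd2 at 6.37 and 2.91.

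**Figure D5:**
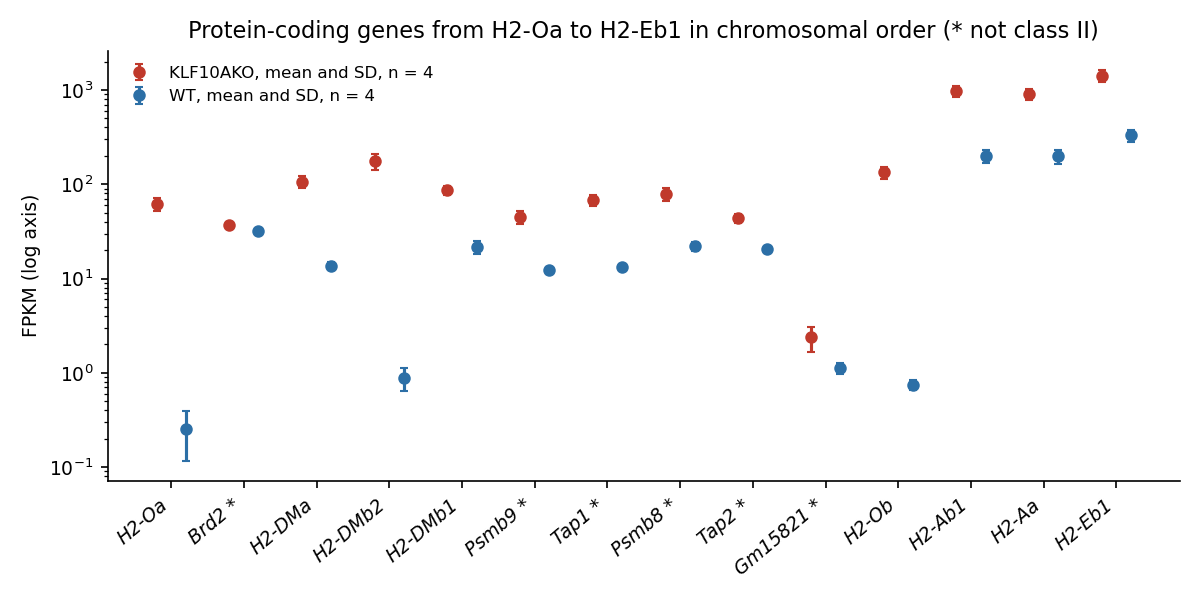
Mean FPKM (log axis, bars of 1 SD, n = 4 libraries a group) of the 14 protein-coding genes tested in the class II interval, in chromosomal order, KLF10AKO left of WT, with asterisks on genes outside the set. Brd2 differs least between the groups, while H2-Oa, H2-DMb2 and H2-Ob stand apart from WT by more than the other class II genes.

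The remaining members lie elsewhere, Ciita on chromosome 16 and Cd74 on chromosome 18, with log2 changes of 3.37 and 2.52, inside the range of the 8 genes on chromosome 17. In the Ciita gene model 329 exon bases (3.45%) are shared with Dexi, on the opposite strand.

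The 5 protein-coding genes whose profile over the 8 libraries was nearest to the mean profile of the 10 members were Nkg7, Wdfy4, Rhoh, Rassf5 and Runx3. Their root mean square distance was 0.0443 to 0.0643 on the log2 scale, and Pearson's r with the profile was 0.9995 to 0.9998 over 8 libraries, which fall into 2 separate groups and share their scaling. Their log2 changes of 3.64 to 3.77 lay between 3.37 for Ciita and 6.37 for H2-Oa. No member had a change in that gap, so the mean profile is not that of a single member. Nkg7, a granule gene of cytotoxic lymphocytes, averaged 48.0 ± 5.40 FPKM in KLF10AKO and 3.05 ± 0.345 FPKM in WT libraries (SD, n = 4 each). Wdfy4, needed for cross-presentation by dendritic cells, averaged 18.6 ± 2.46 FPKM in KLF10AKO and 0.947 ± 0.107 FPKM in WT libraries (SD, n = 4 each).

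Scaling and single libraries were checked last, as the adipocyte markers were lower in KLF10AKO. After scaling every library to the mean of 14 adipocyte markers, all 10 class II genes were again higher, with a median log2 change of 4.33, but so were 93.2% of genes tested, and the median over all genes tested was 1.66. With KLF10AKO replicate 4, the KLF10AKO library lowest in muscle markers, set alone against WT, with the WT spread taken for both groups, all 10 were higher as well, with a median of 2.91, against 32.4% of genes tested. With voom on recovered reads, in the library sizes that the authors' scaling implies, all 10 were higher, against 38.3% of genes tested.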

How the data were processed

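RNA of iWAT was sequenced in 4 KLF10AKO and 4 WT libraries. Per the labels' protocols, mRNA was purified on poly-T beads, primed with random hexamers and size-selected to 370 to 420 bp. The submitters' processing notes name HISAT2 2.0.5, featureCounts 1.5.0-p3, edgeR 3.22.5 and mm10. The use of each tool, the release of the annotation and the setting for strand are not given there or in any label. The authors deposited FPKM, and the deposited table gives another quantity too, the length of each gene, used here with FPKM to recover reads. FPKM times length was a whole multiple of 1 step per library for 100% of values, within 0.01 of a read. Per library, recovered reads were 0.901 to 0.939 of the size implied by the step in KLF10AKO and 1.05 to 1.09 of it in WT, a sign that the authors had scaled sizes between samples.

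The groups were compared with limma 3.58.1 (R 4.3.3; lmFit, then eBayes with trend) on log2(FPKM + 0.5) of 16012 genes with a mean FPKM of at least 0.5, two-sided, with Benjamini-Hochberg adjustment over all genes and a threshold of 0.05. Of these, 11893 passed, 6305 higher and 5588 lower. Fold changes on this scale understate the change of low genes. Single values had exact two-sided permutation tests. Alternatives were limma's voom on recovered reads (chosen after seeing the data), 2 other pseudocounts, other filters, TPM, quantile normalization, scaling to adipocyte markers, a replicate block, protein-coding genes alone, each library left out, and KLF10AKO replicate 4 alone. The procedure was checked on simulated data in which few genes changed, as many up as down. That check does not cover a shift as broad as the one here, nor sizes scaled between samples.

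The members, lists, pairs and tests were chosen with earlier results of these data known. Genes named were the members, the genes of the lists and pairs, Klf10, the genes of the class II interval and the 5 protein-coding genes with the profile nearest to the members' mean. One gene of the interferon-gamma list is not reported here, and the list's counts leave it out. Prl3b1, and the interval's genes, were named after values were known. PCR reads carry no molecular identifiers, so precision from depth covers counting error only. Gene identifiers matched GENCODE M21 in 99.9% of cases, and promoters came from RefSeq (GRCm38.p6).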

Additional observations from a re-analysis of the deposited data

Results flagged for a closer look

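Among 22 groups of 4 gene values and 24 groups of 4 ratios, 2 held a library that stood apart from the other 3 past Dixon's 95% limit, where chance flags about 1 in 20. H2-DMb1 in WT replicate 3 had 26.7 FPKM, against 19.4 to 20.6 FPKM in the other WT libraries, a gap of 0.832 of the group's range. H2-Ob in WT replicate 2 had 0.877 FPKM, against 0.691 to 0.719 FPKM in the other WT libraries, a gap of 0.853 of the range, at 46 reads in that library. Both lie far below the KLF10AKO libraries, which had 75.6 to 97.6 FPKM of H2-DMb1 and 111 to 155 FPKM of H2-Ob.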

How the results depend on the processing

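Each of the 10 class II genes kept its direction and passed in all 19 alternatives. The log2 change with 1 library left out ran from 1.91 to 2.07 for H2-DMb1 and from 6.86 to 7.11 for H2-DMb2. The count of genes passing, 11893, ran from 11298 to 11862 with 1 library left out and was 11726 with a replicate block. Same-numbered libraries deviated together with correlations of 0.0030 to 0.031. KLF10AKO replicates 1, 3 and 4 were nearest to the WT library of their own number, and replicate 2 to WT replicate 1. As the correlations were low and no label marks pairs, the numbers were not taken to pair the libraries. The block changed no call of a class II gene. The median over all genes tested moved by 0.20 in TPM, by -0.20 with quantile normalization and by 1.61 with scaling to adipocyte markers, where 14929 genes were higher and 120 lower, against 6305 and 5588 before.

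Directions turned under scaling to adipocyte markers for Klf10 (0.73), Adgre1 (0.35), Ctsl (0.39), Ctsb (0.23), Ctsd (0.0076), Ctsz (1.51), Lgmn (1.22), March8 (0.43), Rfxap (1.27) and Ifngr1 (0.77), and for 12 of the dendritic cell, macrophage and adipocyte markers (0.13 to 1.49), none of them class II genes, as the scale itself lifts the median gene. Ctsz was 0.11 in TPM, Rfxank -0.050 with quantile normalization, and the difference of H2-Oa to H2-Ob 0.23 with a pseudocount of 0.1. Outside the marker lists, Lgmn and Rfxap did not pass in TPM, and Nfyb and Nfyc did not pass with KLF10AKO replicate 4 alone. Of the markers, Cd209a, C1qa, C1qc and Cfd did not pass with that library alone. The muscle markers Acta1, Ckm and Myh4 turned to -3.03, -0.015 and -0.25 with it. With voom, Ckm, Mylpf, Tnnt3, Tnni2 and Myh4 did not pass (voom adjusted p of 0.0939 to 0.587). Brd2 did not pass in 3 alternatives. The planned count models, edgeR and DESeq2, are not reported because the deposited unit is FPKM, and voom on recovered reads (11733 genes passing) was chosen in their place after seeing the data. With 3 libraries against 4 the exact test cannot go below 0.0571, so leaving a library out says nothing of the ratios' calls. Low WT reads limit the folds of H2-Oa, H2-DMb2, H2-Ob and H2-Eb2.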
